A study of Homo sapiens with 8 samples.

Results

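The 34 ribosome biogenesis factor genes described here were picked by gene symbol from a Cas13d dropout screen, by a pattern that uses no fold change. The symbol pattern took the NOP, NOL, UTP, RRP, TSR, GNL, NOC and IMP families together with factors named singly, such as FBL, PES1, HEATR1, BMS1, BYSL and 5 genes with WDR symbols, and left out genes typed as non-essential controls. These genes carried 2008 of the 46829 guides of the screen, on 274 of its 6735 splice junctions, and made up 34 of its 1250 genes. The screen was run in A375, an established human melanoma line, as a monoclonal derivative with the genotype TetO-RfxCas13d, so that all libraries come from 1 clone. RfxCas13d is a CRISPR nuclease that is directed by its guide to RNA and not to DNA, and doxycycline switches its expression on. Each guide was aimed at an exon-exon junction of a transcript. Libraries of the integrated guides came from genomic DNA. The Day 0 cells were untreated, and those of Day 7, Day 14 and Day 21 were given doxycycline at 1 ug/ml. Each of these 4 groups had 2 replicates, 8 libraries in all, and every group carried the same clone and the same lentiviral guide pool. Cells kept without doxycycline to the later days were not analysed here, and neither were the levels of the target RNAs. The guide sequences were not used here either, so guides are identified by their gene, their junction and their number on that junction.

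Ribosomes are assembled mainly in the nucleolus, where RNA polymerase I makes a long precursor rRNA that is folded, chemically modified and cut by a large number of trans-acting factors. The small subunit processome forms on the 5′ end of this precursor and prepares the 18S rRNA. Box C/D small nucleolar ribonucleoproteins (snoRNPs) guide the methylation of rRNA riboses, and further factors build the large subunit or carry out the last steps of 40S maturation. Proliferating cells depend on this pathway because each division needs a new set of ribosomes. By role, 15 of the genes belonged to the small subunit processome (BMS1, HEATR1, IMP4, NOC4L, NOL6, NOP9, RRP36, RRP7A, RRP9, UTP18, UTP20, UTP4, WDR3, WDR43 and WDR75, with 1149 guides). The large subunit assembly group held 11 genes (GNL2, GNL3, GNL3L, NIP7, NLE1, NOL8, NOP16, PES1, RRP1, WDR12 and WDR74, with 565 guides). Late 40S maturation was represented by 5 genes (BYSL, LTV1, RIOK1, TSR1 and TSR2, with 164 guides). The core box C/D snoRNP proteins were represented by 3 genes (FBL, NOP56 and NOP58, with 130 guides). The number of guides per gene ranged from 8 to 333 with a median of 46.5, the median gene had 7 targeted junctions, and 200 of the 274 junctions had the full set of 8 guides.

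The measured quantity was the deposited log2 fold change of a guide, relative to Day 0 in the same replicate. A value of −1 means that the guide's share of the pool, in the authors' scaling, had fallen by 1 on the log2 scale since Day 0. The 3 days of a replicate therefore share the same Day 0 library, and their values are not independent of each other. The spread comes from 2 replicates, and because the labels do not say whether these were separate cultures from the start, p-values may measure technical spread alone. Read depth was not stated. The fold changes were ratios of whole numbers, though, and the smallest whole number that could stand for Day 0 had a median over the 2008 guides of 94 in replicate 1 and 123 in replicate 2. A gene's value was the mean over its guides, which share a target and are not replicates of each other. It was called lower or higher at a Benjamini-Hochberg adjusted p under 0.05 in limma, a linear model with a moderated spread, with the adjustment over all 1223 genes that had at least 3 guides. The median of the non-targeting guides stayed near 0. At Day 21 it was −0.04 in replicate 1 and 0.00093 in replicate 2, and 10 of 963 (1.04%) were called lower. On average over the replicates, 16.8% of them lay at or below −1 at that day. At gene level, 26 of 394 non-essential control genes (6.60%) were called lower at Day 14 and 20 (5.08%) at Day 21 (limma).

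Guides against 12 of the 34 ribosome biogenesis factors were depleted by Day 14, with FBL, which encodes the rRNA methyltransferase fibrillarin, and the processome gene WDR75 lowest. At Day 7 none of the 34 genes was called lower by limma, against 3.92% of all genes tested, and none was under any of the 8 alternative settings. The smallest adjusted p at that day was 0.209 (limma), and 2 of the 34 had an unadjusted p under 0.05. At Day 14, 12 genes (35.3%) were called lower against a background of 22.1%, and at Day 21, 10 genes (29.4%) were called lower against a background of 20.8%. These backgrounds cover all genes tested, including 394 non-essential control genes. None was called higher at any day. The median over the 34 gene means was −0.07 ± 0.06 (SD, n = 2) at Day 7, −0.46 ± 0.01 (SD, n = 2) at Day 14 and −0.61 ± 0.09 (SD, n = 2) at Day 21. Over all genes tested the median at Day 21 was −0.32. At Day 21, 29 of the 34 genes had a mean below 0 in both replicates.

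The genes of ribosomal proteins, the structural parts of the ribosome that these factors put together, had much lower values in the same screen. At Day 21 the median over 27 tested large-subunit protein genes was −2.91 ± 0.30 (SD, n = 2), and that over 16 small-subunit protein genes was −2.23 ± 0.25 (SD, n = 2). Among them, 22 of 27 and 13 of 16 were called lower. The biogenesis factors had a median 2.30 ± 0.38 above the former and 1.62 ± 0.34 above the latter (SD, n = 2), in the same direction in both replicates. A further set held the 795 other tested genes typed as essential or as not essential under Cas13, without the non-essential controls. These are called scored genes here. Against them the factors had a median that differed by −0.21 in replicate 1 and by −0.19 in replicate 2 at Day 21. With guide medians in place of means the average of these 2 differences was −0.10 and not −0.20. An exact sign-flip test of 2 paired differences cannot go below 0.5, and no other test of them was run. At Day 21 the share of genes called lower was close in both sets, 29.4% of the factors and 28.2% of the other scored genes. At Day 14 the shares were 35.3% and 29.2%.

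The box C/D snoRNP genes held the gene with the lowest mean of the 34. FBL encodes the methyltransferase of these particles. Its gene mean was −0.18 and −0.69 in replicates 1 and 2 at Day 7, −2.17 and −3.14 at Day 14, and −2.46 and −2.79 at Day 21. Both later days lay far below Day 7 in both replicates, and the replicates stayed on the same side of 0 throughout. The Day 21 mean of −2.63 ± 0.17 (SE) had an adjusted p of 0.0107 (limma) and corresponds to 16.2% of the Day 0 abundance as a geometric mean over its 27 guides. Of these guides, 14 (51.9%) were called lower at Day 21.

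NOP56 and NOP58 encode the paired scaffold proteins that hold fibrillarin on the snoRNA, and both genes were also lower at Day 21. NOP56 had gene means of −0.24 and −0.49 at Day 7, −0.97 and −0.88 at Day 14, and −1.02 and −1.17 at Day 21, with a Day 21 adjusted p of 0.0232 (limma). NOP58 had gene means of −0.04 and −0.19 at Day 7, −0.65 and −0.56 at Day 14, and −0.79 and −0.72 at Day 21, with a Day 21 adjusted p of 0.0463 (limma). Both genes were lower at Day 21 than at Day 14 in both replicates, by less than their fall since Day 7, and NOP58 lay above NOP56 in every library. All 3 snoRNP genes were called lower at Day 14 and at Day 21, where 22.1% and 20.8% of all genes tested were. NOP58 lost its Day 21 call when values were centred on the non-targeting guides (adjusted p = 0.0569, limma). It also lost it with no minimum of guides (adjusted p = 0.0520, limma). With guide medians all 3 genes lost it (adjusted p = 0.05975 in FBL, 0.179 in NOP56 and 0.184 in NOP58, limma). Centred on all guides, NOP56 and NOP58 lost it (adjusted p = 0.0800 and 0.131, limma). The 3 genes together had 21.5% of their 130 guides called lower at Day 21, where all guides of the screen had 11.1%. The share was uneven, with 14 of 27 guides in FBL, 9 of 56 (16.1%) in NOP56 and 5 of 47 (10.6%) in NOP58.

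In the small subunit processome, 5 of 15 genes were called lower at Day 21 and 6 of 15 at Day 14. Of all genes tested, 20.8% and 22.1% were called lower at these days. The median gene mean of this group at Day 21 was −0.65, and gene means ranged from −2.20 to 0.30. HEATR1, UTP4, WDR43 and WDR75 are orthologues of yeast UTP-A proteins, the subcomplex that binds the precursor rRNA first and is linked to its transcription. WDR75 had gene means of −0.16 and −0.39 at Day 7, −1.90 and −1.56 at Day 14, and −2.63 and −1.77 at Day 21. Its Day 21 mean was −2.20 ± 0.27 (SE) with an adjusted p of 0.0206 (limma), and 21.8% of the Day 0 abundance was left. It had only 8 guides, all on 1 junction, so its value stands for that junction alone.

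HEATR1, a very large scaffold protein, had gene means of −0.01 and −0.11 at Day 7, −1.04 and −1.03 at Day 14, and −1.33 and −1.25 at Day 21. The replicates lay within 0.1 of each other at Day 14 and Day 21, and the Day 21 adjusted p was 0.0175 (limma). WDR43 had gene means of −0.08 and −0.16 at Day 7, −0.83 and −0.75 at Day 14, and −1.12 and −1.02 at Day 21, with a Day 21 adjusted p of 0.0232 (limma). UTP4 had gene means of −0.03 and −0.33 at Day 7, −0.64 and −1.08 at Day 14, and −0.83 and −1.31 at Day 21, with a Day 21 adjusted p of 0.0416 (limma). UTP4 was lower in replicate 2 than in replicate 1 at every day, which the other UTP-A genes did not share.

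UTP20 encodes a very long repeat protein of the processome. It was the most heavily targeted gene of the 34, with 333 guides on 46 junctions. Its gene means were 0.02 and −0.22 at Day 7, −0.84 and −0.91 at Day 14, and −1.15 and −1.09 at Day 21, with a Day 21 adjusted p of 0.0214 (limma). NOC4L, part of the NOP14-NOC4 unit of the processome, had gene means of −0.66 and −0.68 at Day 14 with an adjusted p of 0.0337 (limma). At Day 21 its replicates were further apart, at −0.90 and −0.55, and it missed the threshold (adjusted p = 0.0698, limma). It passed at Day 21 with all days in one fit (adjusted p = 0.00565, limma), and with the replicate number added to that fit, called the replicate block (adjusted p = 0.00319, limma).

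RRP36, which takes part in the early cuts of the precursor rRNA, had the highest mean of the group and of all 34 genes. Its gene means were 0.26 and 0.08 at Day 7, 0.17 and 0.05 at Day 14, and 0.30 and 0.29 at Day 21, with a Day 21 adjusted p of 0.240 (limma). All 6 values were above 0, on 15 guides and 2 junctions. The remaining 8 genes of the processome were called at no day. Their Day 21 means ran from −0.67 to −0.04, with adjusted p-values between 0.0618 and 0.861 (limma).

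None of the 5 late 40S maturation genes was called at any day by limma, and 2 of them had an unadjusted p under 0.05 at Day 21. Of all genes tested, 22.1% were called lower at Day 14 and 20.8% at Day 21. The median gene mean of these genes at Day 21 was −0.48. TSR1, a GTPase-like factor of the late pre-40S particle, was the lowest. It had gene means of −1.03 and −0.46 at Day 14 and −0.98 and −0.63 at Day 21, and its Day 21 adjusted p was 0.0577 (limma). It passed when guides below an implied 50 at Day 0 were left out (adjusted p = 0.0412, limma), with all days in one fit (0.0139) and with the replicate block (0.00308). BYSL, the orthologue of yeast Enp1, was the highest, with 0.01 and −0.02 at Day 21 and a mean of −0.0039. It had 28 guides on 4 junctions, and its adjusted p was 0.989 at Day 21 (limma). Among the 164 guides of the late 40S genes, 9 (5.49%) were called lower at Day 21, the smallest share of the 4 roles. The share among all guides was 11.1%. The pooled share rests largely on RIOK1 with 82 guides and BYSL with 28, which had 0 called. The calls lay in the other genes, with 4 of 16 guides in TSR1, 3 of 16 in LTV1 and 2 of 22 in TSR2.

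Of the 11 large subunit assembly genes, 3 were called lower at Day 14 and 2 at Day 21. Among all genes tested the shares were 22.1% and 20.8%. PES1, which forms the PeBoW complex with BOP1 and WDR12, had gene means of −0.03 and −0.25 at Day 7, −0.77 and −0.73 at Day 14, and −0.85 and −1.01 at Day 21, with a Day 21 adjusted p of 0.0331 (limma). GNL2, a nucleolar GTPase of pre-60S particles, had gene means of 0.07 and −0.08 at Day 7, −0.62 and −0.73 at Day 14, and −0.75 and −0.74 at Day 21, with a Day 21 adjusted p of 0.0473 (limma). Both replicates of both genes lay below their Day 7 values at the later days. GNL3L, a GTPase related to nucleostemin, was called lower at Day 14 with −0.72 and −0.51 (adjusted p = 0.0477, limma). At Day 21 it had −1.07 and −0.69 and missed the threshold (adjusted p = 0.0517, limma), which it passed under the same 3 settings as TSR1 (adjusted p = 0.0307, 0.00436 and 0.00111, limma). NOP16 was the highest of the group, with 0.23 and 0.10 at Day 21 and an adjusted p of 0.494 (limma). The median gene mean of the group at Day 21 was −0.44, and 9.20% of its 565 guides were called lower, against 11.1% of all guides.

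The calls at gene level depended on how guides were summarised and centred. With the median over a gene's guides in place of the mean, 1 of the 34 genes (WDR75) was called at Day 14 and 0 at Day 21, and with values centred on all guides of the library, FBL alone was called at Day 21. Centred on the non-targeting guides, 7 of the 10 kept their Day 21 call, and UTP4 (adjusted p = 0.0725, limma), NOP58 and GNL2 (adjusted p = 0.0592, limma) lost it. When the days were fitted together and the replicate number was taken as a block (replicate block), 25 of 34 genes were called lower at Day 14 and 26 at Day 21, and RRP36 was called higher at Day 21 (adjusted p = 0.0431, limma).

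The fall took place mainly between Day 7 and Day 14. The difference between the 2 days within a replicate, in which Day 0 drops out, was below 0 in both replicates in 31 of the 34 genes. It passed limma's test in 10 genes (29.4%), against 21.1% of all genes tested. The count was 3 with guide medians, 3 with values centred on all guides and 5 without guides below an implied 50 at Day 0. FBL fell by 2.22 ± 0.18 on the log2 scale (SE, adjusted p = 9.27e-05, limma), and WDR75 and HEATR1 had the next largest falls. The 10 genes also included UTP20, UTP4, WDR43, NOC4L, GNL2, PES1 and NOP56. Between Day 14 and Day 21, none of the 34 genes passed limma's test, against 1.06% of all genes tested. The smallest adjusted p for that step was 0.225 (limma, WDR75), 1 gene had an unadjusted p under 0.05, and 19 genes were lower at Day 21 than at Day 14 in both replicates. At Day 14, 19 guides of the 34 genes in replicate 1 and 37 in replicate 2 already stood at an implied number of 1, the lowest possible. Such guides could not fall further. An FBL guide at 1 on both days had −7.17 and −8.01 at Day 14 and −6.78 and −7.74 at Day 21. The effect of this limit on the step was not tested. The median over the 34 differences was −0.40 from Day 7 to Day 14 and −0.09 from Day 14 to Day 21. For all genes tested these medians were −0.23 and −0.06.

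Below the gene, the values differed strongly from junction to junction. The tests of single junctions were added after the gene and guide values had been seen. Of 268 junctions of the 34 genes with at least 3 guides, 79 were called lower at Day 21 (limma), where 25.3% of all junctions tested were. Every one of the 79 was below 0 in each replicate, and 56 of them were below −1 in each. They lay in 25 of the 34 genes, and 30 of the 79 lay in genes that were not themselves called. Set against the mean of the other guides of the same gene, 35 junctions of 267 were lower (background 12.0%) and 25 were higher (background 9.92%). All 60 were on the same side of the rest of their gene in both replicates. The calls were made from these same 2 replicates, so the signs of the 79 and the 60 are descriptions only. The size could differ between replicates. A UTP20 junction called higher had 1.54 and −0.92, where the other guides of the gene had −1.17 and −1.09. Both junctions of TSR1 count here from 1 difference, 1 as lower and the other as higher. In any gene, a low junction also lowers the rest against which the other junctions are set. Each junction was tested against 0 with the same standard error of 0.358, because limma pooled the spread over junctions, so a junction with 3 guides was treated as being as precise as one with 8. With the replicate block, the counts were 130 junctions lower than 0, 53 lower than the rest and 76 higher than the rest. With guide medians they were 59, 24 and 4.

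FBL shows the range within a gene. The coordinates given are those of the deposited table, with hg38 as the build in the submitters' processing notes, and junctions are ordered from the 5′ end of the gene among those with guides. FBL lies on the minus strand of chromosome 19, and all of its targeted junctions lay inside the gene. The first junction, from 39839205 to 39840232, had Day 21 means over its guides of −1.08 and −1.13. The second, from 39837843 to 39839034, had −3.92 and −4.73, and the third, from 39836668 to 39837710, had −5.58 and −5.54. The fourth, from 39834813 to 39836555, had 0.35 and 0.41, above 0 in both replicates. All 5 guides of the third junction were called lower, and none of the 5 guides of the fourth was. Relative to the rest of FBL, the second and the third differed by −2.42 ± 0.36 and −3.60 ± 0.36 (SE), with adjusted p-values of 2.91e-06 and 9.48e-10 (limma). The first was called lower against 0 and yet was higher than the rest by 2.17 ± 0.36 (SE, adjusted p = 1.51e-05, limma). The fourth was higher than the rest by 3.69 ± 0.36 (SE, adjusted p = 6.04e-10, limma). Of all tested junctions of the 34 genes, the third FBL junction had the lowest mean.

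WDR43, on the plus strand of chromosome 2, had a similar contrast. Its first 3 junctions, between 28894923 and 28912589, had Day 21 means of 0.02 and 0.22, 0.48 and 0.18, and −0.11 and 0.21. The next junction, from 28912710 to 28914068, had −3.98 and −4.24, and all 8 of its guides were called lower. Its difference from the rest of WDR43 was −3.30 ± 0.36 (SE, adjusted p = 5.78e-09, limma), and the first 3 were each higher than the rest. Of the 14 junctions of WDR43, 5 were called lower.

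In UTP20, on chromosome 12, 45 junctions could be tested, of which 20 were called lower, 7 were lower than the rest of the gene and 9 were higher. The lowest junction, from 101352194 to 101353046, had Day 21 means of −4.64 and −5.11. It was 1 of the 7 lower junctions. The 278 guides of UTP20 off those 7 had means of −0.73 and −0.59, against −1.15 and −1.09 over all 333. The 7 were picked as low from these same values, so the direction of this difference was set by the choice. Junction means showed no trend along the transcript, with Pearson's r of 0.09 and Spearman's rho of 0.03 against the order of the 45 junctions. The same junctions gave r = 0.80 between replicates. These coefficients are descriptions over junctions of 1 gene in the same libraries.

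Other called genes had 1 or a few junctions far below the others. The PES1 junction from 30579935 to 30580052 on chromosome 22 had −2.55 and −2.50, with 5 of its 8 guides called lower. The GNL2 junction from 37583933 to 37587310 on chromosome 1 had −2.41 and −2.70, with 6 of its 8 guides called lower. In UTP4 the junction from 69163178 to 69165340 on chromosome 16 had −1.41 and −4.19, so the gap between the replicates of this gene was widest there. HEATR1 showed no such contrast, but it had only 2 junctions, both near the 5′ end of the gene on chromosome 1. They had −1.31 and −1.36, and −1.35 and −1.14, and no difference between them was called (adjusted p = 0.907, limma). In NOP56, 4 of 7 junctions were called lower and all 7 had means below 0.

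Genes that were not called could hold strongly depleted junctions as well, and 15 of the 24 such genes (62.5%) had at least 1 junction called lower by limma. Of the 571 other scored genes not called lower at Day 21, 39.2% had one. The median number of junctions tested per gene was 5.5 and 5 in these sets, and the difference was not tested. The following were named after their values had been seen. NOL6, a processome protein, had a gene mean of −0.49 over 149 guides, and its junction from 33466987 to 33467113 on chromosome 9 had −2.47 and −3.39 with 5 of 8 guides called lower. NOP9, an RNA-binding factor of the processome, had −2.36 and −2.44 on its last junction with guides, from 24304598 to 24304937 on chromosome 14, which differed from the rest of the gene by −1.95 ± 0.36 (SE, adjusted p = 7.17e-05, limma). BMS1, a GTPase of the processome, had −2.84 and −2.09 on the junction from 42792614 to 42792956 on chromosome 10, with 4 of 7 guides called lower. In each of these genes the remaining guides had a mean between −0.45 and −0.35 at Day 21.

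Guides on the same junction varied too. At guide level 21 of the 2008 guides (1.05%) were called lower at Day 7 by limma, where 2.1% of all guides were. At Day 14 the count was 170 (8.47%) against a background of 7.96%, and at Day 21 it was 231 (11.5%) against a background of 11.1%. With the replicate block, 416 guides were called lower at Day 21. The share of guides at or below −1 at Day 21 was 34.2% ± 2.7 (SD, n = 2), against 31.8% ± 1.6 (SD, n = 2) of all guides and 16.8% ± 0.59 (SD, n = 2) of the non-targeting guides. The guides of the 34 genes are thus near the whole screen both in this share and in the shares called at Day 14 and Day 21. Within the 10 called genes 146 of 764 guides (19.1%) were called lower, and within the other 24 genes 85 of 1244 guides (6.83%) were. Since the gene means are made of the same guides, the last comparison is a description.

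Several guides fell to the lowest number the data can show. In replicate 1, guide 4 of the third FBL junction had implied numbers over the 4 days of 115, 55, 1 and 1. Replicate 2 gave 195, 75, 1 and 1. Its Day 21 log2 fold changes of −6.78 and −7.74 are therefore set by the Day 0 number. In WDR43 the lowest guide, the first on the junction spanning 28936953 to 28937930, gave 95, 91, 1 and 1 (replicate 1) and 242, 53, 48 and 1 (replicate 2). For UTP20 the lowest guide (number 7, junction spanning 101345694 to 101346450) gave 136, 131, 64 and 1 (replicate 1) and 121, 36, 20 and 1 (replicate 2). The WDR43 guide thus reached the lowest number at different days in the 2 replicates, and the UTP20 guide reached it at Day 21 in both. The lowest NOP56 guide, number 8 of the junction from 2654575 to 2654748 on chromosome 20, was already low at Day 7, at 14 of 103 and 9 of 107. Over all 2008 guides, 55 in replicate 1 and 43 in replicate 2 stood at an implied number of 1 at Day 21, so their fold changes are limited by depth.

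The lowest guides of the remaining called genes had a wider range of values. The lowest PES1 guide, number 5 of its low junction, had Day 21 values of −6.84 and −6.09. The lowest UTP4 guide, number 3 of its low junction, had −5.82 and −6.94, and the lowest GNL2 guide, the first on the junction spanning 37568357 to 37568850, had −6.44 and −4.94. In HEATR1, where no difference between the 2 junctions was called, guide 3 of the second junction had −6.11 and −4.18. For WDR75 the lowest guide, number 3, had −5.82 and −2.83, the widest gap between replicates among these 10 guides. The lowest NOP58 guide (number 5, on the junction spanning 202303057 to 202303385 of chromosome 2) had −4.17 and −2.60, the least extreme of the 10.

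A few guides became more abundant. At Day 21, 5 of the 2008 guides (0.249%) were called higher by limma, against 0.218% of all guides. They lay in WDR12, RIOK1, UTP20, NOP56 and RRP7A, 1 in each gene. The RIOK1 guide had an implied 89 at Day 0 and 1455 at Day 21 in replicate 1, and 167 and 659 in replicate 2. In NOP56, a gene called lower, guide 6 of the junction from 2655512 to 2655594 had 80 and 272, and 49 and 515.

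The agreement between replicates grew with the number of guides averaged. At Day 21 Pearson's r between the replicates was 0.49 over the 2008 guides, 0.78 over the 268 junctions and 0.88 over the 34 genes. For non-targeting guides it was 0.03. After the gene mean was subtracted, junctions still had r = 0.75 between replicates, and after the junction mean was subtracted, guides had r = 0.37. At Day 7 the values were lower, with 0.26 for guides, 0.41 for junctions and 0.61 for genes. The 2 replicates have separate Day 0 libraries, and these coefficients are descriptions over guides of the same pool. By guide number within the junction, the share of guides called lower at Day 21 lay between 8.91% and 13.6% over the 8 numbers.

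The deposited table also typed each gene and gave it a GeCKO score, named after a Cas9 knockout library. Of the 34 genes, 29 were typed as essential under Cas13 and 5 as not essential, namely RIOK1, BYSL, NIP7, NOP16 and RRP36. The criterion for the type was not stated and it may have used these same fold changes. No guide of those 5 genes was called lower at Day 21, and IMP4, typed as essential, was the only other gene without one. The GeCKO score did not order the genes as the Day 21 mean did, with Pearson's r of −0.07 and Spearman's rho of −0.09 over the 34 genes, given as a description. All 34 scores lay between −1.98 and −0.85, and the coefficients cover that range alone. NOP16 had the lowest GeCKO score of the 34, −1.98, with a Day 21 gene mean of 0.17. PES1 came next with −1.90 and a Day 21 gene mean of −0.93, followed by IMP4 with −1.73 and a Day 21 gene mean of −0.04. NOP16 was also the only gene with guides on overlapping junctions. These share the end at 176385220 on chromosome 5, start at 176384374 and 176384283, and had Day 21 means of 0.34 and −0.01.

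Other genes of ribosome biogenesis in the screen had a share of calls near that of the 34 factors and near that of the other scored genes. Of 52 such genes, which include RNA polymerase I subunits, exosome subunits, DEAD-box helicases and further assembly factors, 14 (26.9%) were called lower at Day 21 and 0 were called higher by limma, and 25 had an unadjusted p under 0.05. Among all genes tested 20.8% were called lower at that day, and among the other scored genes 28.2%. The median of the 52 genes was −0.46 ± 0.06 (SD, n = 2). The 3 lowest were NCL, which encodes the nucleolar protein nucleolin, at −2.44 (adjusted p = 0.0107, limma), the processome factor FCF1 at −1.90 (adjusted p = 0.0232, limma), and the pre-60S factor RSL24D1 at −1.89 (adjusted p = 0.0394, limma). The highest was POP5, a subunit of the RNase P and RNase MRP complexes, at 0.06 with an adjusted p of 0.821 (limma). The 34 factors had a median that differed from that of these 52 genes by −0.17 in replicate 1 and by −0.13 in replicate 2, and this difference was not tested.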

How the data were processed

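The authors deposited log2 fold changes over Day 0, 1 per guide, day and replicate, in a single file, per the file headers. The submitters' processing notes name cutadapt 3.5, Bowtie 1.1.2 and hg38; library scaling, pseudocount and filters are not given in the sources used here. The deposited GeCKO gene score was used as given. No column of another series was present. Whole numbers behind the fold changes were recovered for 100% of guides, with denominators up to 2000. Each implied number of a later day lay within 0.0001 of a whole number. The recovered numbers are lower bounds and cover counting error only.

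Gene, junction and guide values were averaged over guides and tested per day with limma 3.58.1 in R 4.3.3 (empirical Bayes, Benjamini-Hochberg over all 1223 genes and 6401 junctions with at least 3 guides, 6111 contrasts of a junction with its gene, or 46829 guides), after the scripts were tested on simulated data. Python 3.11.15 and pandas 2.3.3 did the rest. Changes between days were tested within replicates. All 34 symbols matched RefSeq GRCh38.p14, with all targeted junctions inside the gene. Genes called at any day and the lowest and highest of each role were named, with the lowest guide of each gene called at Day 21; other genes of the pathway were named for the 3 lowest and the highest. Members, roles and lists were chosen with earlier results of these data known.

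Alternatives were guide medians, centring on non-targeting or all guides, an implied Day 0 number of at least 50, no minimum of 3 guides, robust moderation, all days in one fit, the replicate block and leaving out a replicate. Replicate numbers come from the labels, and Day 0 of the same number is already subtracted. Deviations of same-numbered libraries over all guides correlated at 0.48 (Day 7 with Day 14), 0.41 (Day 7 with Day 21) and 0.65 (Day 14 with Day 21), all days sharing Day 0.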

Additional observations from a re-analysis of the deposited data

Results flagged for a closer look

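In 10 genes the effect of the guides differed between Day 7 and Day 14 by a direct test of the difference within replicates (limma, adjusted over 1223 genes, of which 21.1% were called lower). The Day 14 minus Day 7 difference of the gene mean was −2.22 in FBL, −1.45 in WDR75 and −0.97 in HEATR1. In the other processome genes it was −0.78 in UTP20, −0.68 in UTP4, −0.67 in WDR43 and −0.66 in NOC4L. For large subunit assembly it was −0.67 in GNL2 and −0.61 in PES1. NOP56 had −0.56 with an adjusted p of 0.0446 (limma), the highest of the 10. The count of 10 was 3 with guide medians, 3 with values centred on all guides and 5 without guides below an implied 50 at Day 0. In each of the 10 genes the difference was below 0 in both replicates.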

How the results depend on the processing

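At gene level, the 12 calls at Day 14 became 1 with guide medians, 4 centred on all guides, 22 with all days in one fit and 25 with the replicate block. The 10 calls at Day 21 became 0, 1, 24 and 26 under the same settings, 7 centred on the non-targeting guides and 8 with no minimum of guides, and the 10 falls from Day 7 to Day 14 became 3 with guide medians, 3 centred on all guides and 5 when guides below an implied 50 at Day 0 were left out. Centring on all guides raised the median of all genes by 0.23 at Day 14 and by 0.31 at Day 21. Guides called lower at Day 7 went from 21 to 0 with all days in one fit and to 0 with the replicate block, and at Day 21 from 231 to 416 with the block. The block gave 130 junctions lower than 0, 53 lower than the rest and 76 higher, and guide medians gave 4 higher.

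The median of the 34 gene means at Day 14 was −0.31 with guide medians, −0.49 with the minimum of 50, −0.45 centred on non-targeting guides and −0.23 centred on all guides. At Day 21 it was −0.34 with guide medians and −0.30 centred on all guides. The difference from the other scored genes at Day 7 changed sign to 0.0037 with guide medians, and at Day 21 it was −0.10 with guide medians and −0.17 with the minimum of 50. The cause of these shifts was not tested. Leaving out a replicate gives values with no test. Among the 16 gene means recomputed at Day 21, it kept every sign except that of BYSL, which lay near 0. The replicates also lay on opposite sides of 0 in NIP7 (−0.32 and 0.48) and WDR74 (−0.19 and 0.19), which were not recomputed. Read depth limits guides at an implied number of 1.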

Other observations

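The processome genes can be set out by subcomplex, a grouping chosen after the values had been seen and not tested. The orthologues of UTP-A proteins among the 34 genes, HEATR1, UTP4, WDR43 and WDR75, were called lower at Day 21 (limma). UTP4 lost its call when centred on the non-targeting guides, and all 4 lost it with guide medians. UTP20, which is not a UTP-A protein, was called as well. The orthologues of UTP-B proteins, UTP18 and WDR3, had Day 21 gene means of −0.56 and −0.65 and missed the threshold (adjusted p = 0.0844 and 0.0683, limma). TBL3, a further UTP-B orthologue outside the 34 genes, was called lower with a Day 21 gene mean of −1.10 (adjusted p = 0.0232, limma).

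In the PeBoW complex, PES1 was called lower at Day 21 while WDR12 had gene means of −0.40 and −0.48 at Day 21 (adjusted p = 0.124, limma); the difference between the genes was not tested. The 8 guides of NOP58's second junction, from 202284481 to 202287659 on chromosome 2, had Day 21 means of −0.32 and 0.58, and those of its last junction had −1.48 and −1.93.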
